A study of Mus musculus with 6 samples.

Results

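A set of 10 genes that stand for the handling of fatty acids by heart ECs were followed by their symbols in the count table, out of 55416 genes listed and 16296 tested. They are the transcription factors *Meox1*, *Meox2*, *Tcf15* and *Pparg*, the lipolysis genes *Lpl* and *Gpihbp1*, the uptake genes *Cd36* and *Slc27a3*, and the carriers *Fabp4* and *Fabp5*, and all 10 passed the filter on low counts. RNA came from mGFP+ ECs sorted by FACS from heart ventricles of E15.5 mouse embryos. Both groups carried Pdgfb(CreERT2/+), a tamoxifen-dependent Cre made in cells that express *Pdgfb*, and R26(mTmG/+), a reporter that turns green in recombined cells; the dams had been given tamoxifen by oral gavage (75 mg/kg) between E11.5 and E13.5. The ControlΔEC libraries (n = 3) had Wt1(+/+), with no floxed allele, and the Wt1KOΔEC libraries (n = 3) had Wt1(loxP/loxP), so that carrying the floxed allele and losing *Wt1* cannot be told apart. The question addressed here is whether these 10 genes differed between ECs with and without *Wt1*.

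After birth heart muscle burns mainly fatty acids, which its capillary ECs pass on from the blood, whereas the fetal heart relies more on glucose and lactate. Triglycerides in lipoproteins are cleaved at the capillary wall by lipoprotein lipase, the freed fatty acids enter ECs through CD36 and transport proteins, and FABP4 and FABP5 carry them inside the cell. The homeobox factor MEOX2 and the bHLH factor TCF15 are known to form a heterodimer in heart ECs and to switch on such uptake genes, and PPARγ is a lipid-activated nuclear receptor with *Fabp4* and *Cd36* among its known targets.

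The libraries held between 26037324 and 44779020 expected counts, and 3 counts made between 0.0608 and 0.119 CPM (counts scaled to the library's total and its TMM factor), which is taken as the floor of detection and covers counting error only. *Wt1* itself was at 109.5 to 149 CPM in ControlΔEC and at 14.0 to 21.3 CPM in Wt1KOΔEC (log2 fold change -2.91, adjusted p = 0.00319, edgeR). The 8 endothelial markers, *Pecam1* and *Cdh5* among them, summed to between 4539 and 5766 CPM in ControlΔEC and between 4685 and 5402 CPM in Wt1KOΔEC. At an unadjusted p under 0.05 (edgeR) 1 of them, *Emcn*, was higher and 0 were lower in Wt1KOΔEC, against 5.96% and 7.12% of all genes. *Kdr* was lower without overlap, at 1029 to 1201 CPM in ControlΔEC and 859.5 to 990.8 CPM in Wt1KOΔEC. ControlΔEC replicate 2 stood apart from the other ControlΔEC libraries in several of the genes described here, and values without it are given where it decides them. It was picked for its own values, so these describe the weight of that library and are not a further test. In bulk RNA, fewer cells of a kind and less RNA per cell cannot be told apart.

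None of the 10 genes was a differentially expressed gene (DEG) by edgeR's quasi-likelihood test, with a limit of 0.05 on the adjusted p-value and of 0.58 on the size of the log2 fold change; over all genes tested 0.0736% were DEGs. At an unadjusted p under 0.05 there were 3 of the 10, *Fabp5* higher and *Meox2* and *Cd36* lower in Wt1KOΔEC, against 13.1% of all genes. With DESeq2 in place of edgeR 2 of the 10 were DEGs, *Fabp5* and *Meox2*, against 4.83% of all genes (2.2% higher and 2.63% lower). No member was a DEG with limma-voom (0.0491% of all genes), and 1, *Fabp5*, was with edgeR's likelihood ratio test (2.65% of all genes). The same pair, and no other member, had libraries that did not overlap between the genotypes, a separation that 19.3% of all genes showed (10.3% higher and 8.97% lower). The median log2 fold change of the 10 genes was -0.04, beside -0.03 over all genes tested.

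**Figure D1:**
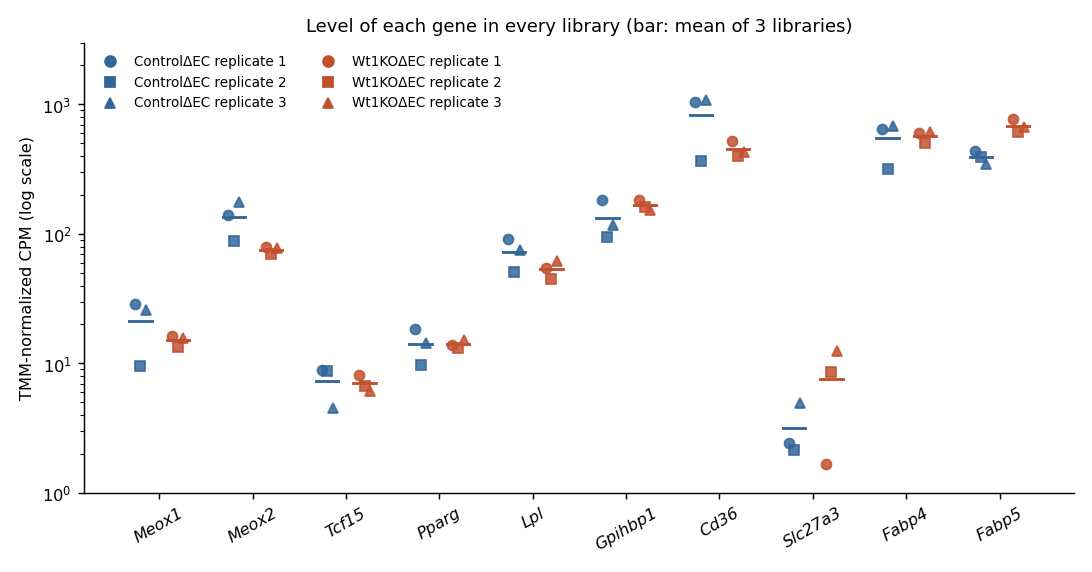
TMM-normalized CPM (log scale) of the 10 genes in each library, with a bar at the mean of each group of 3. *Fabp5* lies higher and *Meox2* lower in all 3 Wt1KOΔEC libraries than in any ControlΔEC library, and the square that marks ControlΔEC replicate 2 lies at the bottom of its group for 8 of the 10 genes.

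Among the transcription factors, *Meox2* differed most between the genotypes (ENSMUSG00000036144.7; GRCm39 chromosome 12, 37158533 to 37229533, plus strand, 3 exons). It was at 141, 89.0 and 176 CPM in ControlΔEC replicates 1, 2 and 3 and at 79.5, 69.5 and 78.1 CPM in Wt1KOΔEC replicates 1, 2 and 3. Every Wt1KOΔEC library was below every ControlΔEC library, although the gap between ControlΔEC replicate 2 and the highest Wt1KOΔEC library was small. The log2 fold change was -0.84 (95% interval -1.37 to -0.30), that is 0.560-fold, with an adjusted p = 0.220 in edgeR and 0.0261 in DESeq2. Its level varied far more among ControlΔEC libraries (coefficient of variation 32.3%) than among Wt1KOΔEC libraries (7.10%), where the medians over genes of at least 10 CPM were 20.9% and 13.8%.

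*Meox1*, the paralog of *Meox2* on chromosome 11, was at 28.5, 9.61 and 26.1 CPM in ControlΔEC and at 16.3, 13.4 and 15.7 CPM in Wt1KOΔEC replicates 1, 2 and 3. ControlΔEC replicate 2 was the lowest of the 6 libraries and the other ControlΔEC libraries the highest, so the groups overlapped (log2 fold change -0.50, 95% interval -1.36 to 0.37, adjusted p = 0.670, edgeR). Without that library the log2 fold change was -0.85, and its adjusted p = 0.201 in edgeR still missed the threshold. Without ControlΔEC replicate 1 instead, the log2 fold change of *Meox1* was -0.231. *Tcf15*, which encodes the partner of MEOX2 and lies on chromosome 2 as *Wt1* does, was low, at 8.87, 8.71 and 4.51 CPM in ControlΔEC and 8.21, 6.71 and 6.17 CPM in Wt1KOΔEC. All 3 Wt1KOΔEC values of *Tcf15* lay inside the ControlΔEC range (log2 fold change -0.07, 95% interval -0.98 to 0.84), and the width of this interval leaves a change of the size seen for *Meox2* within it. *Pparg*, on chromosome 6, was at 18.4, 9.69 and 14.5 CPM in ControlΔEC and 13.9, 13.1 and 15.2 CPM in Wt1KOΔEC. Its groups had nearly equal means, 14.2 and 14.1 CPM (log2 fold change -0.01, 95% interval -0.69 to 0.67), and without ControlΔEC replicate 2 the log2 fold change was -0.22.

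The genes of lipolysis at the capillary wall lay on opposite sides of 0, and neither passed the test. *Lpl* encodes lipoprotein lipase, which parenchymal cells secrete and capillaries display, and it was at 91.4, 50.6 and 75.3 CPM in ControlΔEC and 54.7, 44.7 and 62.2 CPM in Wt1KOΔEC. ControlΔEC replicates 1 and 3 both lay above all Wt1KOΔEC libraries, and with ControlΔEC replicate 2 the groups overlapped (log2 fold change -0.43, 95% interval -0.96 to 0.11, adjusted p = 0.505, edgeR). Without that library it was -0.63 (adjusted p = 0.242, edgeR), and without ControlΔEC replicate 1 instead -0.221. *Gpihbp1* encodes the EC protein that binds lipoprotein lipase and carries it to the vessel lumen. It was at 182.8, 95.3 and 117 CPM in ControlΔEC and 182, 163 and 153.5 CPM in Wt1KOΔEC, with ControlΔEC replicate 1 as high as the highest Wt1KOΔEC library (log2 fold change 0.34, 95% interval -0.20 to 0.87, adjusted p = 0.625, edgeR; 0.15 without ControlΔEC replicate 2).

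*Cd36*, the gene for the main fatty acid translocase of capillary ECs (ENSMUSG00000002944.16; GRCm39 chromosome 5, 17986432 to 18094067, minus strand), was the most abundant of the 10 by CPM in ControlΔEC. It was at 1054, 367 and 1079 CPM in ControlΔEC and 525, 398 and 428 CPM in Wt1KOΔEC. ControlΔEC replicates 1 and 3 were at about the same level and far above every Wt1KOΔEC library, while ControlΔEC replicate 2 was below all of them. With all libraries the log2 fold change was -0.89 (95% interval -1.68 to -0.09, adjusted p = 0.334 in edgeR and 0.111 in DESeq2). Without ControlΔEC replicate 2 it was -1.24 with an adjusted p = 0.0295 in edgeR, the only adjusted edgeR call of a member when single libraries were left out. Leaving out ControlΔEC replicate 3 instead moved the log2 fold change of *Cd36* to -0.655. As the library left out for the call was the lowest for this gene, the call describes its weight only. *Slc27a3*, of the FATP family of fatty acid transport proteins, was the lowest of the 10 genes, at 2.41, 2.15 and 4.92 CPM in ControlΔEC and 1.66, 8.62 and 12.4 CPM in Wt1KOΔEC. Its Wt1KOΔEC libraries ranged from the lowest to the highest of all 6 values, and the interval of its log2 fold change of 1.26 ran from -0.36 to 2.88 (adjusted p = 0.515, edgeR).

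The carriers FABP4 and FABP5 are close relatives, and their genes lie 187.1 kb apart on chromosome 3. *Fabp5* (ENSMUSG00000027533.11; GRCm39 chromosome 3, 10077602 to 10081674, plus strand, 4 exons) was at 436, 390 and 348 CPM in ControlΔEC and 766, 611 and 667 CPM in Wt1KOΔEC. All Wt1KOΔEC libraries were above all ControlΔEC libraries, and ControlΔEC replicate 2 lay between the other controls. The log2 fold change was 0.80 (95% interval 0.44 to 1.16), that is 1.74-fold (1.36 to 2.23), with the smallest adjusted p of the 10 genes in edgeR, 0.114, and 7.46e-05 in DESeq2. The 5 processed pseudogenes of 93.6% to 98.3% identity to *Fabp5* can share its reads; together they held between 1.51% and 2.22% of the *Fabp5* count in each library, and the log2 fold change of the sum was 0.81. *Fabp4* (ENSMUSG00000062515.4; GRCm39 chromosome 3, 10268785 to 10273737, minus strand) was at 641, 319 and 685 CPM in ControlΔEC and 603, 506 and 609 CPM in Wt1KOΔEC. The Wt1KOΔEC values of *Fabp4* all fell between ControlΔEC replicate 2 and the other controls (log2 fold change 0.06, 95% interval -0.53 to 0.66, adjusted p = 0.963, edgeR), and without that control it was -0.21. The difference between the changes of the neighbouring genes was not tested.

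**Figure D2:**
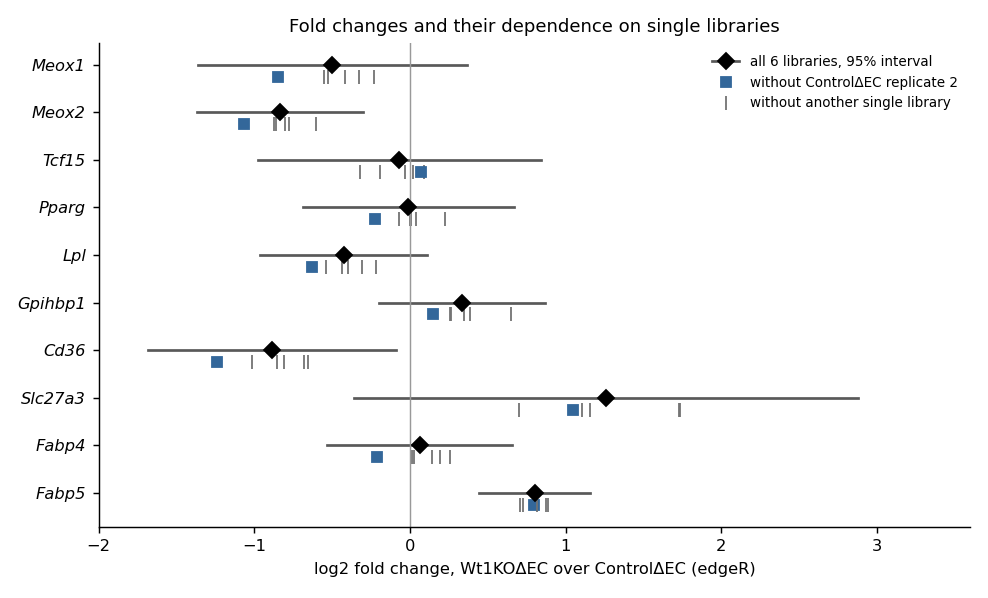
Log2 fold change of each gene, Wt1KOΔEC over ControlΔEC (edgeR, n = 3 against 3), with its 95% interval, and the values when single libraries were left out. The intervals of *Meox2*, *Cd36* and *Fabp5* do not include 0. *Cd36* lies at -1.24 without ControlΔEC replicate 2 and at -0.655 without ControlΔEC replicate 3.

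The bases before the annotated start of *Meox2* and *Fabp5* are shown because the libraries of these genes did not overlap between genotypes. They are the 250 bases upstream of the start of each gene's canonical transcript on GRCm39, read 5′ to 3′ on the gene's strand, and capitals mark letters of the E-box CANNTG, bound by bHLH factors such as TCF15.
*Meox2*, chr12:37158283-37158532 (plus): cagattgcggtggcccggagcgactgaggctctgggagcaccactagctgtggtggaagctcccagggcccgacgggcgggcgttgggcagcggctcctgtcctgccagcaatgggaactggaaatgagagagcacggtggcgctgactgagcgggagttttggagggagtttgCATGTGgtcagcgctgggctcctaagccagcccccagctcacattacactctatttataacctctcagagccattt
*Fabp5*, chr3:10077352-10077601 (plus): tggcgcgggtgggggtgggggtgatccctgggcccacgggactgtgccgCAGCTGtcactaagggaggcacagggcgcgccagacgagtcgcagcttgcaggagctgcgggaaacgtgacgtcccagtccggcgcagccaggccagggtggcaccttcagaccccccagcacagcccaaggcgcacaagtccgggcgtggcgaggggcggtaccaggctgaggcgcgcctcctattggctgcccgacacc
Windows that also held the first 50 transcribed bases were searched on both strands. The letters sought were the E-box, the homeodomain core TAATTA, the zinc finger core GCGTGGG of EGR1 and WT1, and the nuclear receptor half-site AGGTCA. The E-box was found in 9 of the 10 genes' windows, all but that of *Tcf15*, and in 70.6% of 21770 windows of protein-coding genes. TAATTA and GCGTGGG were in 0 of the 10 and in 5.51% and 5.80% of all windows. AGGTCA was in 1 of the 10, the window of *Fabp4*, and in 15.1% of all windows. The windows differed in base composition, with a GC content of 60.0% for *Meox2* and 69.3% for *Fabp5*, where the median over all windows was 54.3%. Binding was not measured, so these matches describe letters only.

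ControlΔEC replicate 2 was the lowest ControlΔEC library for 8 of the 10 genes, all but *Tcf15* and *Fabp5*, as it was for 34.4% of all genes and 37.9% of those with a ControlΔEC mean of at least 10 CPM. Relative to the mean of ControlΔEC replicates 1 and 3 it held 34.4% for *Cd36*, 35.2% for *Meox1*, 48.1% for *Fabp4* and 56.2% for *Meox2*. Over genes of at least 10 CPM this percentage had a median of 97.2% and a 5th percentile of 52.5%, so *Cd36*, *Meox1* and *Fabp4* lay below that percentile. *Gpihbp1*, *Lpl*, *Pparg* and *Slc27a3* were at 58.6% to 63.6%, and *Fabp5* was at 99.6%. The same library had the highest sum of the 9 macrophage markers, 901 CPM against 308 to 462 CPM in the other ControlΔEC libraries and 236 to 314 CPM in Wt1KOΔEC. It also had the highest erythroid sum, 14340 CPM, and the lowest endothelial sum, 4539 CPM. The part of these other cells in the members' levels was not tested.

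Because several members dropped together in that library, ratios between genes of the same library were taken, a step chosen after the levels had been seen and given here without a test. The ratio to *Fabp4* was lower in every Wt1KOΔEC library than in every ControlΔEC library for 4 of the 9 other genes, *Meox1*, *Meox2*, *Lpl* and *Cd36*. Of genes of at least 10 CPM, 5.99% were separated in that direction. *Tcf15* and *Slc27a3*, which are among the 9, were under 10 CPM and so outside that background. *Meox2* over *Fabp4* was 0.220, 0.279 and 0.257 in ControlΔEC replicates 1, 2 and 3 and 0.132, 0.137 and 0.128 in Wt1KOΔEC. *Cd36* over *Fabp4* was 1.64, 1.15 and 1.58 in ControlΔEC and 0.871, 0.788 and 0.703 in Wt1KOΔEC, so that ControlΔEC replicate 2 stayed above every Wt1KOΔEC library on this scale. *Fabp4* itself was at 48.1% of the other controls in that library, so dividing by it lifts the ratios there. *Fabp5* over *Fabp4* was 0.680, 1.22 and 0.508 in ControlΔEC and 1.27, 1.21 and 1.09 in Wt1KOΔEC, and here ControlΔEC replicate 2 reached the Wt1KOΔEC range. Relative to the endothelial gene *Pecam1*, *Meox2* was at 8.46%, 6.43% and 9.49% in ControlΔEC and at 4.72%, 4.25% and 5.56% in Wt1KOΔEC. *Fabp5* was at 26.2%, 28.2% and 18.8% of *Pecam1* in ControlΔEC and at 45.5%, 37.4% and 47.5% in Wt1KOΔEC. The other 8 genes overlapped between the genotypes on the *Pecam1* scale, on which 6.4% of genes of at least 10 CPM were separated as lower and 13.8% as higher in Wt1KOΔEC.

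**Figure D3:**
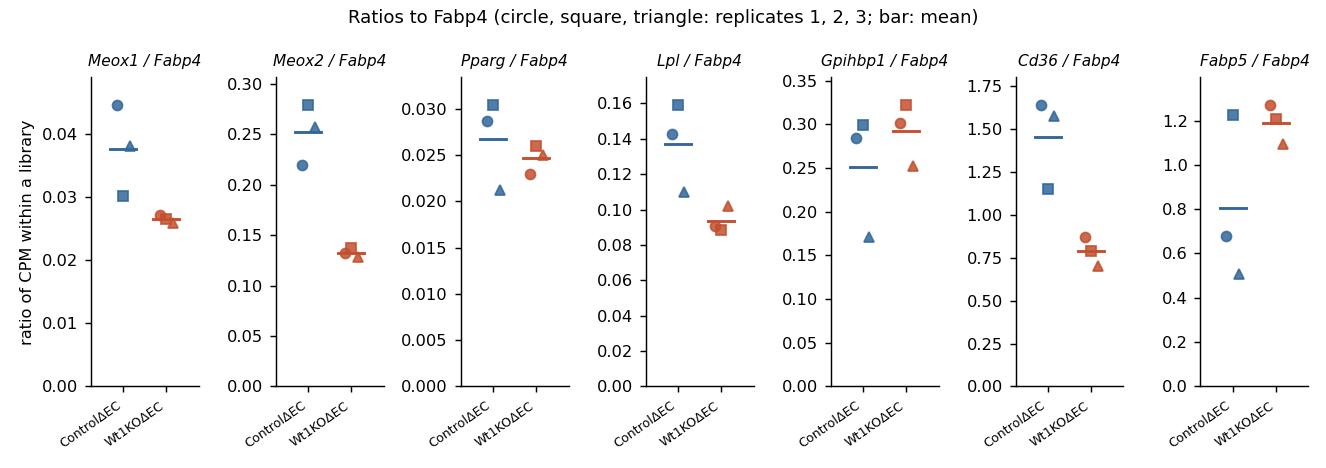
Ratio of each gene's CPM to that of *Fabp4* within a library, for the 7 other genes with a mean of at least 10 CPM (circles, squares and triangles are replicates 1, 2 and 3, bars are means). The ratios of *Meox1*, *Meox2*, *Lpl* and *Cd36* do not overlap between ControlΔEC and Wt1KOΔEC, and that of *Fabp5* overlaps through ControlΔEC replicate 2.

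Per kb of exonic length, *Fabp4* and *Fabp5* were at the top of the 10 genes in ControlΔEC, at 110.7 and 106.7 CPM per kb, with ranges that overlapped. *Cd36* (66.0), *Meox2* (57.2) and *Gpihbp1* (51.5 CPM per kb) followed and overlapped one another in turn. *Meox1* (9.49), *Lpl* (5.92) and *Tcf15* (5.37 CPM per kb) formed a lower group, below which came *Pparg* at 2.04 and *Slc27a3* at 0.835 CPM per kb. In Wt1KOΔEC *Fabp5* was first at 185.7 CPM per kb, and its libraries did not overlap those of *Fabp4*, at 115.6 CPM per kb. *Gpihbp1* (64.9) stood above *Cd36* (35.7) and *Meox2* (32.0 CPM per kb) there. Exonic length counts the exons of all annotated transcripts, 12.6 kb for *Cd36* against 3.505 kb for its canonical transcript, while for *Meox2* the lengths were equal. Per kb of the canonical transcript, *Cd36* was at 237.8 and *Meox2* at 57.2 CPM in ControlΔEC, and at 128.6 and 32.0 CPM in Wt1KOΔEC. On this scale *Gpihbp1* lay above *Meox2* and *Lpl* above *Meox1* in both genotypes.

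The genes whose levels over the 6 libraries were most like those of *Meox2* were *Gm12183*, *mt-Co3*, *H1f2*, *Cav1* and *Noct*, ranked among 8469 genes by the root mean square difference of centred log2 CPM, from 0.101 to 0.147. *Cav1*, which encodes the main protein of EC caveolae, was at 3605, 1885 and 3503 CPM in ControlΔEC and 1732, 1757 and 1858 CPM in Wt1KOΔEC. Its ControlΔEC replicate 2 was the control closest to Wt1KOΔEC, which follows from its choice by likeness to *Meox2*. Of the other members, *Cd36* had rank 120, *Lpl* 139 and *Meox1* 448. *Pparg* and *Fabp4* had ranks 1777 and 2083, *Gpihbp1* 5881 and *Fabp5* 7836. The points share library and depth, and the ranking is a description of these 6 libraries.

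The 7 lists of other genes of the same processes held 92 genes, of which 79 were tested. None was a DEG in edgeR, 5 were higher and 4 lower at an unadjusted p under 0.05 (5.96% and 7.12% of all genes), and DESeq2 called 1 higher and 1 lower, as did edgeR's likelihood ratio test, with limma-voom calling none. Over all genes the DESeq2 and likelihood ratio calls made up 4.83% and 2.65%, so the 2 calls among 79 genes are no more than that background. The gene called higher by DESeq2 was *Id2*, which encodes an inhibitor that keeps bHLH factors such as TCF15 and their E protein partners from DNA. It was at 61.1, 98.0 and 96.2 CPM in ControlΔEC and 159, 122.8 and 185 CPM in Wt1KOΔEC, without overlap (log2 fold change 0.87, adjusted p = 0.209 in edgeR and 0.0157 in DESeq2). *Id3*, of the same family, was at 418 to 505.5 CPM in ControlΔEC and 627 to 737 CPM in Wt1KOΔEC, and its log2 fold change of 0.56 was under the limit of 0.58. *Id1* also had separate groups, at 73.0 to 116 CPM and 118 to 154 CPM (log2 fold change 0.45, adjusted p = 0.393, edgeR). The E protein gene *Tcf12* lay on the other side, at 80.7 to 100.1 CPM in ControlΔEC and 46.0 to 77.9 CPM in Wt1KOΔEC (log2 fold change -0.45, adjusted p = 0.420, edgeR). *Tcf4*, also for an E protein, was at 248 to 395.5 CPM in ControlΔEC and 223 to 233 CPM in Wt1KOΔEC (log2 fold change -0.40, adjusted p = 0.4405, edgeR). The low *Id4* went against the other *Id* genes, with a log2 fold change of -1.015 (95% interval -2.67 to 0.64). The median of this list's 7 genes was -0.23, with 3 above 0 and 4 below.

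The receptors and coregulators that work with PPARγ had 0 of 10 tested genes higher and 2 lower at an unadjusted p under 0.05, against 5.96% and 7.12% of all genes. These were the coactivator gene *Ncoa2*, with a log2 fold change of -0.59 (adjusted p = 0.297, edgeR), and the corepressor gene *Ncor1*, with -0.49 (adjusted p = 0.378, edgeR). *Ppara*, the PPAR of fat-burning tissues, had 0 counts in every library, and *Ppard* was at 0.894 to 4.68 CPM in ControlΔEC and 0.895 to 1.38 CPM in Wt1KOΔEC. *Ncoa1*, another coactivator gene, had a log2 fold change of 0.73 (95% interval -0.94 to 2.41). None of the 13 other transport and activation genes tested had an unadjusted p under 0.05. The acyl-CoA synthetase gene *Acsl5* and the acyl-CoA binding gene *Dbi* had separate groups, at 0.27 and 0.40 on the log2 scale (edgeR, adjusted p = 0.533 for *Acsl5* and 0.492 for *Dbi*). The brain carrier gene *Fabp7* was at 1.42 to 5.72 CPM in ControlΔEC and 0.898 to 2.61 CPM in Wt1KOΔEC, and the transporter gene *Slc27a6* was under 1 CPM in every library. *Fabp1*, *Fabp2* and *Fabp6*, carriers of liver and gut, had 0 counts in every library. Among 10 genes of lipoprotein lipolysis and receptors, none had an unadjusted p under 0.05 either; *Vldlr*, a lipoprotein receptor, was at 2.53 to 2.95 CPM in ControlΔEC and 0.486 to 1.12 CPM in Wt1KOΔEC (log2 fold change -1.66, 95% interval -3.47 to 0.16). The receptor gene *Lrp1* had a log2 fold change of -0.82 (-1.74 to 0.10), and *Lmf1*, for the maturation factor of lipases, 0.40 (-0.30 to 1.11). The most abundant gene of this list, *Apoe*, was at 569 to 1405 CPM in ControlΔEC, with replicate 2 the highest, and at 793 to 1095 CPM in Wt1KOΔEC. The hepatic lipase gene *Lipc* had at most 8 counts in a ControlΔEC library and 15 to 64 counts in Wt1KOΔEC.

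The gene called lower by DESeq2 was *Mgll*, which encodes the lipase for the last step of triglyceride breakdown inside cells. It was at 263, 216 and 233.5 CPM in ControlΔEC and 176, 135 and 125 CPM in Wt1KOΔEC, with no overlap (log2 fold change -0.71, adjusted p = 0.198 in edgeR and 0.00619 in DESeq2). In the same list of 11 tested lipid droplet genes, *Dgat1*, for the last step of triglyceride synthesis, was at 16.2 to 20.8 CPM in ControlΔEC and 7.16 to 13.9 CPM in Wt1KOΔEC (log2 fold change -0.79, adjusted p = 0.330, edgeR). The droplet coat gene *Plin3* was at 27.6 to 43.4 CPM and 50.4 to 55.5 CPM (log2 fold change 0.51, adjusted p = 0.348, edgeR), and the hormone-sensitive lipase gene *Lipe* at 4.86 to 5.70 CPM and 7.98 to 9.41 CPM (log2 fold change 0.67, adjusted p = 0.479, edgeR). All 16 genes of mitochondrial fatty acid oxidation were tested; 14 had a log2 fold change above 0, the median was 0.20, and 4 had groups that did not overlap, all higher in Wt1KOΔEC (10.3% of all genes). Over all genes tested 7822 of 16296 were above 0, and the median was -0.03. With scaling by library size only, 6064 of all genes tested were above 0 and their median was -0.18. On that scale 9 of the 16 oxidation genes were above 0, with a median of 0.05. *Slc25a20*, the carnitine-acylcarnitine carrier, was the only one with an unadjusted p under 0.05, at 16.9 to 19.7 CPM in ControlΔEC and 25.5 to 26.8 CPM in Wt1KOΔEC (log2 fold change 0.49, adjusted p = 0.365, edgeR). *Hadha*, the most abundant of the list, was at 131 to 171 CPM in ControlΔEC and 155 to 175 CPM in Wt1KOΔEC, and *Eci1*, *Hadh* and *Acadl* had log2 fold changes of 0.51, 0.28 and 0.20. Of 12 fatty acid synthesis genes, the regulator *Srebf1* had a log2 fold change of 0.55 (adjusted p = 0.332, edgeR), and the most abundant, the desaturase gene *Scd2*, was at 218 to 264 CPM and 250 to 308 CPM. *Acaca*, for the first step of synthesis, and the desaturase gene *Fads1* had log2 fold changes of -0.47 and -0.27 (95% intervals -1.14 to 0.19 and -0.62 to 0.09).

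**Figure D4:**
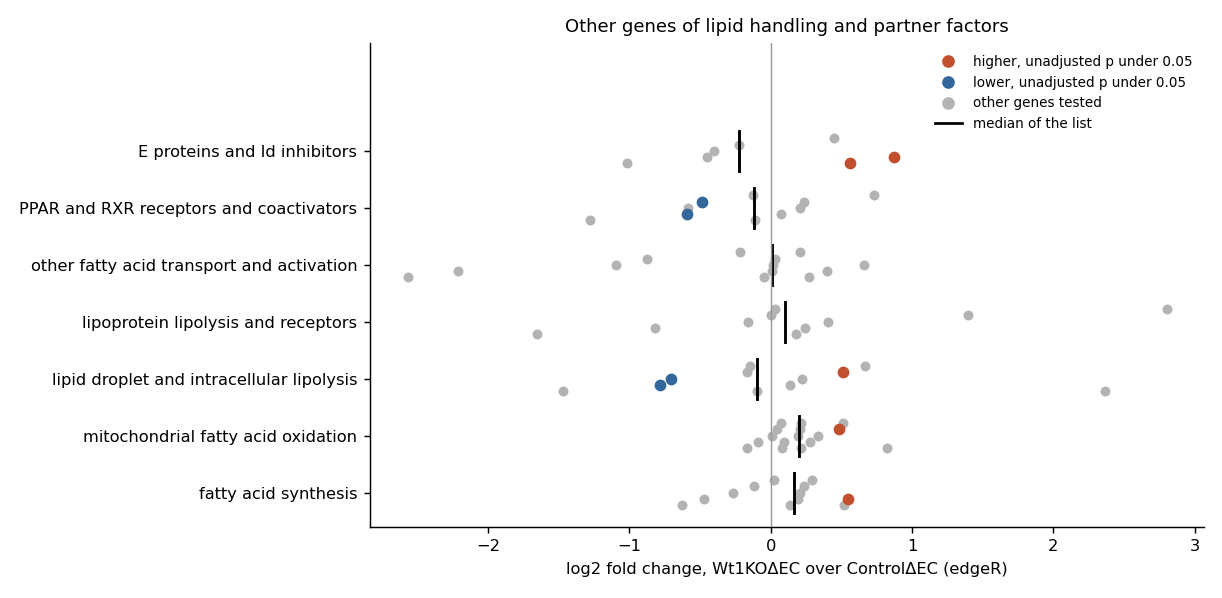
Log2 fold change, Wt1KOΔEC over ControlΔEC (edgeR), of the 79 tested genes of the 7 lists, with the median of each list as a black bar. Coloured points have an unadjusted p under 0.05, 5 higher and 4 lower, and the points of mitochondrial fatty acid oxidation lie mostly above 0.

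Markers of other cells that make or hold some of these genes were read in the same libraries. The 6 adipocyte markers, which matter because adipocytes express *Fabp4*, *Lpl* and *Pparg*, summed to between 0 and 0.277 CPM in ControlΔEC and between 0 and 0.793 CPM in Wt1KOΔEC, with *Lep*, *Plin1* and *Cfd* at 0 counts everywhere. The 8 cardiomyocyte markers summed to between 105 and 147 CPM in ControlΔEC and 77.8 and 186 CPM in Wt1KOΔEC, and 0 of 7 tested had an unadjusted p under 0.05. Of the 9 macrophage markers 5 were lower in Wt1KOΔEC at an unadjusted p under 0.05, where 5.96% of all genes were higher and 7.12% lower. The endocardial sum was 287 to 392 CPM in ControlΔEC and 420 to 506 CPM in Wt1KOΔEC, with 5 of 6 markers higher at that p. Lymphatic endothelial markers summed to between 295.5 and 303 CPM and between 342 and 491 CPM, with 2 of 6 higher. The fibroblast sum was 678 to 982 CPM against 1346 to 1553 CPM, with 5 of 8 higher and *Col1a1* a DEG. The mural cell sum was 468 to 635 CPM against 326 to 382 CPM, with 4 of 8 lower, and the epicardial sum 12.2 to 17.9 CPM against 18.2 to 56.4 CPM, with 2 of 7 higher. Of the 7 erythroid markers, which summed to between 6567 and 14340 CPM and between 5104 and 8490 CPM, 1 was higher and 2 were lower. Platelet markers summed to between 29.4 and 58.0 CPM and between 15.9 and 52.5 CPM. Outside the adipocyte list no marker was at 0 in all libraries. The part of EC subtypes and other cells in the values of *Meox2*, *Cd36* and *Fabp5* was not tested.

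**Figure D5:**
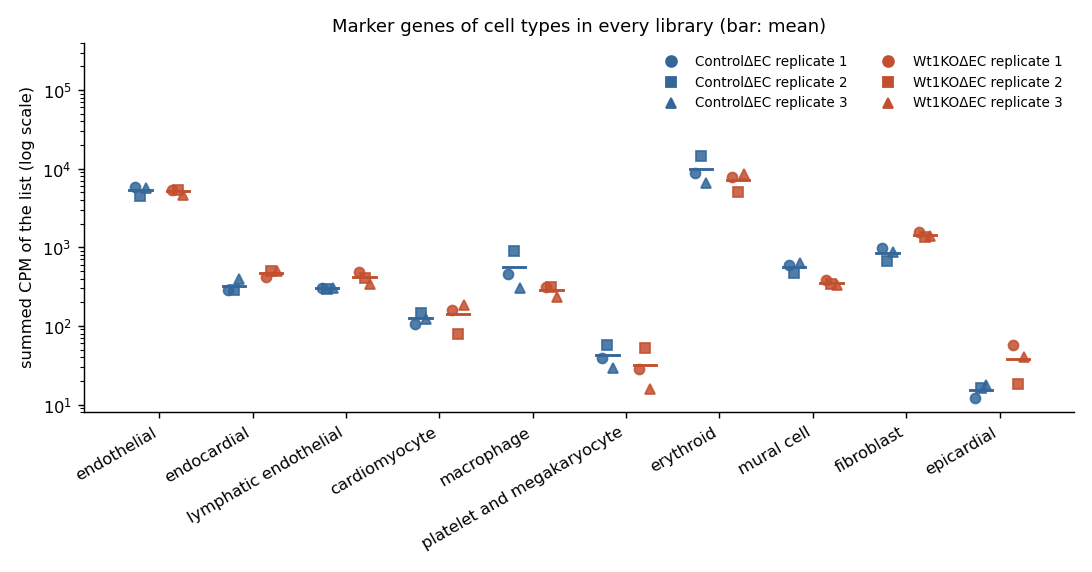
Summed CPM (log scale) of the markers of 10 cell types in each library, with a bar at the mean of each group; the adipocyte list is left out because it was near 0. ControlΔEC replicate 2 has the highest macrophage sum, 901 CPM. The endocardial, lymphatic endothelial, fibroblast and epicardial sums are higher in every Wt1KOΔEC library than in any ControlΔEC library, and the mural cell sum is lower.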

How the data were processed

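The ECs were sorted from ventricles as mGFP+ cells, and libraries were made with SMART-seq2, which amplifies full-length cDNA without molecular identifiers or strand. Per the study's methods the authors aligned reads to GRCm39 and used GENCODE vM27, while the submitters' processing notes also name GRCm38; those notes list STAR 2.7.8a, RSEM 1.3.0 and DESeq2 1.18. The deposited values are the authors' RSEM expected counts per gene, whole numbers without normalization, and they were used as such. Genotype and replicate were taken from the labels, which call the libraries biological replicates without saying whether embryos were pooled. The p-values compare the genotype difference with the spread among libraries of the same genotype. Whether that is a spread between single embryos is not known. The library codes of the counts begin with AT for ControlΔEC and with AU for Wt1KOΔEC, and the labels do not say what this stands for. A batch that follows genotype cannot be told apart from it.

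Genes that reached 10 counts in 2 or more libraries were tested in R 4.3.3 with edgeR 4.0.16 (TMM, quasi-likelihood F test, Benjamini-Hochberg over all genes tested; two-sided). CPM are TMM-normalized; means are over 3 libraries, and intervals are fitted from the F statistic. Alternatives were DESeq2 1.42.0, limma 3.58.1 (voom), edgeR's likelihood ratio test, other normalizations, other filters, a replicate block, *Fabp5* summed with its pseudogenes and each library left out. Length per canonical transcript was added after the data had been seen. Positions, lengths and windows come from the GENCODE vM39 annotation of GRCm39, where 16238 of 16296 genes tested had an entry. Members and lists were chosen with earlier results of these data known. Named from each list were genes from the 4 smallest p-values and the most abundant. *Tcf12* and *Plin3* followed this rule, while *Tcf4*, *Id4*, *Ppara*, *Fabp1*, *Fabp2*, *Fabp6* and the ratios were singled out after values were seen. Scripts were tested on simulated data. GO enrichment was not analysed here.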

Additional observations from a re-analysis of the deposited data

How the results depend on the processing

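DESeq2 called 767 genes in all, 2 of the 10 members and 2 companion genes; edgeR's likelihood ratio test 432, 1 and 2; no filter on low counts 296, 2 and 1; at least 10 counts in every library 113 genes and 1 member; and an unadjusted p with the same fold change limit 1652, 3 and 4, where the main values were 12, 0 and 0. With single libraries left out, between 2 (without Wt1KOΔEC replicate 3) and 37 genes (without ControlΔEC replicate 3) were called, 4 without ControlΔEC replicate 1, 26 without ControlΔEC replicate 2, 3 without either of Wt1KOΔEC replicates 1 and 2, and 0 to 1 members and 0 companion genes. Deviations of same-numbered libraries from their group means correlated at 0.057, 0.004 and 0.020, and those of differently numbered libraries at -0.043 to 0.025. The paper describes crosses that gave both genotypes within a litter, and the labels do not say whether equal numbers mark a shared litter. These correlations cannot decide it. With the replicate block 5 genes and 0 members were called. *Meox2* kept its direction in all 16 alternatives (log2 fold change -1.06 to -0.60, adjusted p = 0.0261 to 0.502) and so did *Cd36* (-1.24 to -0.66, adjusted p = 0.0295 to 0.605), and *Fabp5* in all 17 (0.65 to 0.89, adjusted p = 7.46e-05 to 0.426). Changes near 0 turned sign: *Fabp4* to -0.076 with library size only and between -0.21 (without ControlΔEC replicate 2) and 0.257 with libraries left out; *Pparg* to 0.046 with limma-voom, 0.034 with the replicate block, 0.013 with upper-quartile normalization and between -0.223 and 0.223 with libraries left out; *Tcf15* to between -0.321 and 0.088 with libraries left out; *Apoe* to -0.147 with library size only and between -0.206 and 0.542 with libraries left out; and *Hadha* to -0.075 and between -0.021 and 0.168 in the same way. Library size only moved the median of all genes by -0.15. The cause of these differences was not tested. Even the least abundant member, *Slc27a3*, had at least 65 counts in every library, far above the floor of 3.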
